A study of Mus musculus with 162 samples.

Results

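Wnt proteins and the molecules that receive or block them were followed in single neurons of the mouse embryo. The set held every gene of the authors' normalized table whose symbol named a Wnt ligand, a frizzled receptor (Fzd), a Dickkopf protein (Dkk) or a secreted frizzled-related protein (Sfrp), together with Lrp5, Lrp6, Wif1, Frzb, Ror1, Ror2 and Ryk. This gave 44 of 22800 genes: 19 ligands, 10 frizzled receptors, 2 co-receptors, 3 receptors of the tyrosine kinase-like class and 10 secreted inhibitors. All 44 were present in the count table.

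Each sample was 1 cell, whose cytosol was drawn into a patch-clamp pipette at E17.5 to E18.5 (embryonic days) and sequenced as total RNA. Of 162 cells, 148 had passed the submitters' quality control, 17 from the Lhx6 Cre line, 17 from the Nex Cre line and 114 from the Htr3a Cre line. A Cre line marks the cells in which the promoter it is named for has been active: Lhx6 and Htr3a are genes of interneurons, and Nex (Neurod6) is a gene of glutamatergic neurons. No label names a reporter allele, or which animal or culture a cell came from. Each group is therefore treated as 1 sample, and the spread given is that between cells.

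The passed cells carried 9 type labels: 18 MGE-derived 1 cells (7 of the Lhx6 line, 11 of the Htr3a line), 24 MGE-derived 2 (7 Lhx6, 17 Htr3a), 11 CGE-derived (all Htr3a), 4 GABAergic (1 Lhx6, 3 Htr3a), 12 Cajal Retzius (all Htr3a), 11 VZ-derived (1 Lhx6, 2 Nex, 8 Htr3a), 33 Glutamatergic 1 (10 Nex, 23 Htr3a), 13 Glutamatergic 2 (1 Nex, 12 Htr3a) and 22 Undefined. MGE and CGE were read as the medial and caudal ganglionic eminences, the embryonic sources of cortical interneurons, and VZ as the ventricular zone, where neurons are born. Depth ran from 1710224 to 24836041 counts per passed cell, and from 2066 to 14810 genes. Defining markers went with most labels. The summed level of 6 markers of the MGE had a median of 3530 CPM (counts scaled to the same library total) per MGE-derived 1 cell and 1.63 per CGE-derived cell, that of 5 CGE markers a median of 3146 per CGE-derived cell, and that of 6 Cajal-Retzius markers a median of 12004.5 per cell of that label. The VZ label is an exception: the summed level of 7 ventricular zone markers had a median of 0 in VZ-derived cells (highest 1002), while 6 glutamatergic markers had a median of 1159 there and 1005 in Glutamatergic 1 cells. RNA of microglia, judged by 3 or more of 8 microglial genes at 10 or more counts, was seen in 1 MGE-derived 1, 5 MGE-derived 2, 2 CGE-derived, 1 GABAergic, 2 Cajal Retzius, 2 VZ-derived, 3 Glutamatergic 1, 2 Glutamatergic 2 and 7 Undefined cells.

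Wnt ligands are secreted, lipid-modified proteins that bind frizzled receptors on nearby cells. With the co-receptors Lrp5 and Lrp6 they stabilize beta-catenin, which then acts with TCF/LEF factors on target genes; through Ryk, the Ror proteins and some frizzled receptors they act without beta-catenin on cell polarity and axon growth. Dkk and Sfrp proteins bind co-receptors or the ligands themselves outside the cell. In the developing cortex the pathway is known for patterning, for neurogenesis and for the growth of vessels into the brain.

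Most of the set was rarely seen. A gene was described by cell where at least 10% of the passed cells held a count and its summed counts reached 5 CPM in at least 1 of the 8 named labels. Of the 44 genes 15 met both conditions: the ligands Wnt4, Wnt5a, Wnt7a and Wnt7b, the receptors Fzd1, Fzd3, Fzd7, Fzd8 and Fzd9, the co-receptors Lrp5 and Lrp6, the receptor Ryk, and the inhibitors Dkk3, Sfrp1 and Sfrp2. The other 29 were found in 1 to 13 cells each, and 13 of them stayed under 1 CPM in every named label. Another 6 passed 5 CPM in a label with nearly all counts from 1 cell: Frzb (18.504 CPM in Glutamatergic 2 cells, all of it from 1 cell), Ror2 (32.4 CPM in Cajal Retzius cells, 92.7% of it from 1 cell), Fzd4, Wnt3, Wnt5b and Sfrp4. Single cells also weighed on the described genes: of 59 summed levels of 5 CPM or more in the named labels, 43 changed by over 1.5 times without their highest cell.

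The DNA in front of 2 of these genes is shown because their summed levels lay on opposite sides of the main division of the data. Wnt7a was highest in interneuron labels and Fzd7 in glutamatergic labels, though 5 of 24 MGE-derived 2 cells also held Fzd7. In Glutamatergic 2 cells, its highest label at 18.2 CPM, Fzd7 was held by 1 of 13 cells. Over cells, Fzd7 did not differ enough between interneurons and glutamatergic cells to be called in the comparison below. Sequences are from RefSeq (GRCm38.p6), whose table of promoters matched 30 of the 44 genes and 7 of the 15 described ones. They are written 5′ to 3′ on the gene's strand, from base 250 to base 21 before the annotated start, as chr6:91411374-91411603 on the minus strand for Wnt7a and chr1:59481897-59482126 on the plus strand for Fzd7. Capitals mark the GC box, GGGCGG, on either strand.
Wnt7a: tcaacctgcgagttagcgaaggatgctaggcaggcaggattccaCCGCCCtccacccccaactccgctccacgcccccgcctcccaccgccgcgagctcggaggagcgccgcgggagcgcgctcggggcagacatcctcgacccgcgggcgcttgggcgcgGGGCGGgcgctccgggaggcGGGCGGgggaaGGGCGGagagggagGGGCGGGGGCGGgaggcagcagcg
Fzd7: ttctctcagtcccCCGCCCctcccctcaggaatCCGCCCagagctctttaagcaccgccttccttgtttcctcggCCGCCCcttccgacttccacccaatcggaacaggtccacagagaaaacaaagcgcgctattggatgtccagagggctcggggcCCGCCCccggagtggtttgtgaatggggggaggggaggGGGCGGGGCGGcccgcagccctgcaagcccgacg
Each window held 6 GC boxes, neighbours of which may overlap, and was rich in G and C, at 77.0% for Wnt7a and 66.1% for Fzd7 against a median of 51.7% over 32817 promoter windows of the same 230 bases. A GC box was present in 29.8% of those windows and in 24 of the 33 windows of the 30 matched genes. Neither window held the TCF/LEF core CTTTGA (in 13.05% of all windows), the homeodomain core TAATTA (4.68%) or the E-box CAGATG (13.4%), each searched on both strands. The windows are a description of sequence, with no data on factor binding.

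Among ligands, Wnt7b was the one seen most, with a count in 74 of 148 cells. It acts through beta-catenin in the forebrain, where it is known as a signal of neural cells to blood vessels. Its level ran from 97.0 to 1646 CPM in the 12 Cajal Retzius cells (median 976). In the 11 VZ-derived cells it ran from 0 to 823 CPM (median 67.6), in 33 Glutamatergic 1 cells from 0 to 2412 (median 159) and in 13 Glutamatergic 2 cells from 0 to 551 (median 17.6). The interneuron labels lay at the other end. Counts were found in 2 of 18 MGE-derived 1 cells (highest 109.7 CPM) and 5 of 24 MGE-derived 2 cells (highest 1716). They were found in 1 of 11 CGE-derived cells (105 CPM) and 0 of 4 GABAergic cells, which allows a share of up to 60.2%. Among the named labels, Cajal Retzius cells came first by the CPM of summed counts, at 889.7 (95% Poisson interval 885 to 894). Glutamatergic 1 cells followed at 305.6, VZ-derived cells at 165 and Glutamatergic 2 cells at 88.7. MGE-derived 2 cells stood at 65.3, CGE-derived cells at 8.66 and MGE-derived 1 cells at 3.82. The place of MGE-derived 2 cells rests on 1 cell with 97.3% of their Wnt7b counts, and without it the level was 1.80 CPM. In VZ-derived cells 1 cell gave 54.4% of the counts, and without it the level was 84.5 CPM, under that of Glutamatergic 2 cells. The spread between cells of Glutamatergic 1, VZ-derived and Glutamatergic 2 labels overlapped throughout.

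**Figure D1:**
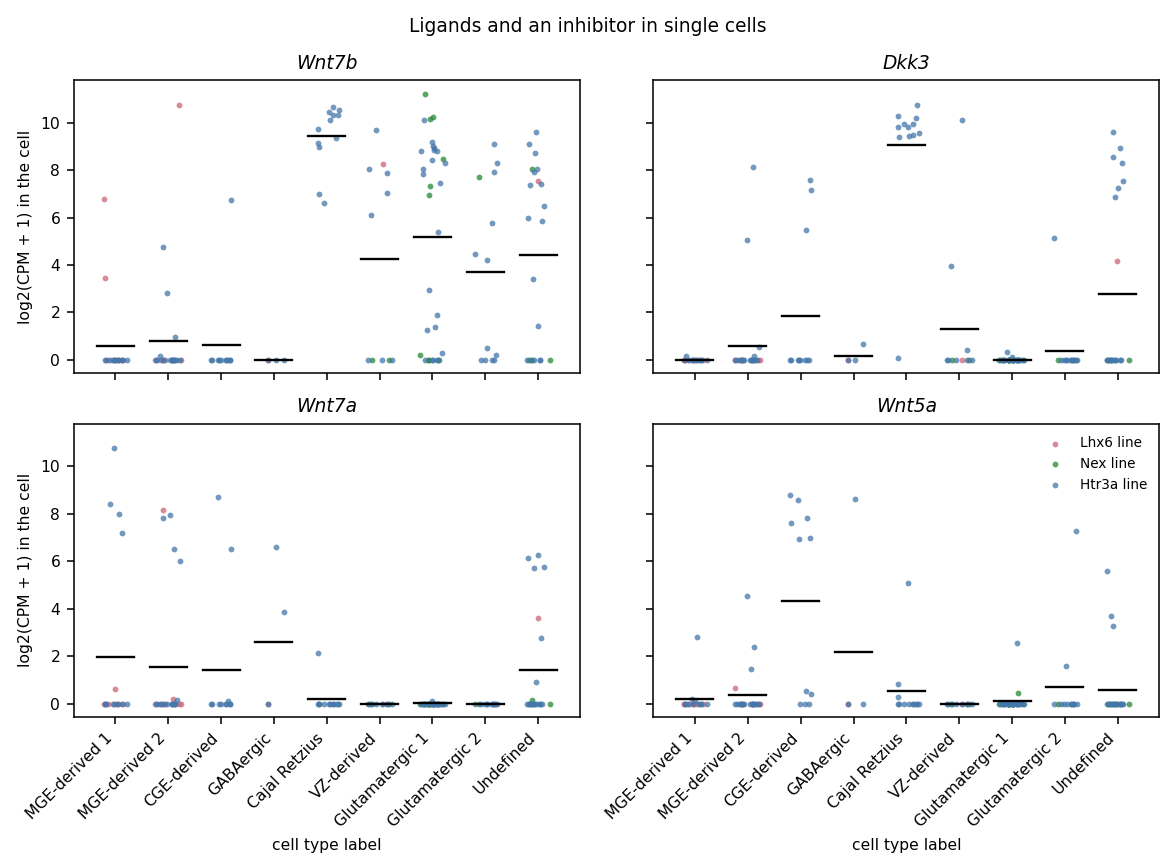
Each point is 1 passed cell, placed by its type label (x) and by its log2(CPM + 1) (y), colored by Cre line, and the black bars are means over cells; the panels are the ligands Wnt7b, Wnt7a and Wnt5a and the inhibitor Dkk3. All 12 Cajal Retzius cells are high in Wnt7b, Wnt7a points off zero lie mainly in interneuron and Undefined labels, and Wnt5a is high in 6 of 11 CGE-derived cells.

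Wnt7a, the closest relative of Wnt7b, had the opposite distribution. It was found in 5 of 18 MGE-derived 1 cells (highest 1757 CPM), 7 of 24 MGE-derived 2 cells (highest 287), 3 of 11 CGE-derived cells (highest 423) and 2 of 4 GABAergic cells (94.97 and 13.5 CPM), with a median of 0 in the first 3 of these labels. In 33 Glutamatergic 1 cells 1 count was found in all, and 13 Glutamatergic 2 and 11 VZ-derived cells had none, while 1 of 12 Cajal Retzius cells held it at 3.40 CPM. Among the named labels Wnt7a was thus held by few interneurons, some of them at a high level. The highest MGE-derived 1 cell carried 54.4% of the counts of its label, whose level was 124 CPM with it and 59.0 without it. At 1 CPM or more, 20 of 148 cells held Wnt7a, 68 held Wnt7b and 9 held both, of which 6 were Undefined cells.

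Wnt5a, a ligand that mainly acts without beta-catenin on polarity and axon growth, was found in 8 of 11 CGE-derived cells, whose levels ran from 0 to 446 CPM (median 123). No other label with more than 4 cells had a median above 0. The next level was that of the GABAergic label, at 96.5 CPM, all from 1 of its 4 cells (398 CPM); the others were at 0. Summed levels were 7.04 CPM in Glutamatergic 2 cells, 99.6% of it from 1 cell, 1.35 in MGE-derived 2 cells, 0.402 in MGE-derived 1 cells and 0.204 in Glutamatergic 1 cells, and no VZ-derived cell held a count. In the Ensembl-based annotation, 4.58% of the exon bases of Wnt5a and 6.61% of those of Wnt7b overlap genes of the opposite strand, and whether counting used strand is not given in the sources used here. Wnt4 was sparse: its highest summed level was 20.2 CPM in Glutamatergic 2 cells (3 of 13 cells), against 8.22 CPM in Cajal Retzius (3 of 12) and 8.03 CPM in Glutamatergic 1 cells (5 of 33). Without the highest cell of each label these levels were 10.6, 5.03 and 1.23 CPM.

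Frizzled receptors were present at low levels in every label, and no label had a frizzled gene in all of its cells. Fzd3, which guides axons and sets tissue polarity, was the one seen most, in 44 cells. It was found in 12 of 24 MGE-derived 2 cells (highest 413 CPM, median 0.0403), 8 of 33 Glutamatergic 1 cells (highest 267) and 4 of 13 Glutamatergic 2 cells (highest 147), against 2 of 18 MGE-derived 1 cells (highest 56.2). By summed level Fzd7 lay mainly in glutamatergic labels, and Fzd9 in these and VZ-derived cells. In Glutamatergic 1 cells Fzd7 was found in 7 of 33 (12.4 CPM) and Fzd9 in 6 of 33 (17.4 CPM). In Glutamatergic 2 cells Fzd7 was held by 1 of 13 (18.2 CPM). Both were also found in MGE-derived 2 cells, Fzd7 in 5 of 24 (highest 13.9 CPM) and Fzd9 in 3 of 24 (highest 52.9 CPM). Both had 0 counts in MGE-derived 1, CGE-derived, GABAergic and Cajal Retzius cells. For Cajal Retzius cells 3 counts, the limit that counting error alone allows for a count of 0, are 0.0192 CPM. In VZ-derived cells Fzd9 reached 47.7 CPM through 2 of 11 cells, 1 of the Lhx6 and 1 of the Nex line. At 1 CPM or more Fzd7 was held by 10 cells and Fzd9 by 15, and 5 cells held both. Fzd8 was found in 5 of 12 Cajal Retzius cells, with a highest value of 50.8 CPM, and Fzd1 in 3 of 11 CGE-derived cells (43.2 CPM, 65.1% of it from 1 cell).

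The number of the 10 frizzled genes held by a cell was small in all labels. It averaged 0.444 ± 0.856 in MGE-derived 1 cells (SD, 18 cells), 1.29 ± 1.33 in MGE-derived 2 cells (24), 0.818 ± 1.17 in CGE-derived cells (11), 1.17 ± 0.937 in Cajal Retzius cells (12), 0.879 ± 0.927 in Glutamatergic 1 cells (33) and 1 in each of the GABAergic, VZ-derived and Glutamatergic 2 labels. These differences lie within the spread between cells. Every cell was then thinned to 1500000 counts, so that depth was equal. The averages of the named labels then ran from 0.444 in MGE-derived 1 cells to 1 in GABAergic cells, with 0.833 in MGE-derived 2 cells.

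The co-receptor Lrp6 and the receptor Ryk were seen in the most cells after Wnt7b, 72 and 62, and in every label. Lrp6 was found in 3 of 4 GABAergic, 9 of 13 Glutamatergic 2, 12 of 24 MGE-derived 2, 8 of 18 MGE-derived 1, 5 of 11 CGE-derived, 5 of 11 VZ-derived, 5 of 12 Cajal Retzius and 12 of 33 Glutamatergic 1 cells. Among the named labels the summed level of Lrp6 ran from 11.4 CPM in VZ-derived to 38.5 CPM in MGE-derived 2 cells, apart from the GABAergic label. There it was 101 CPM, with 98.4% of the counts from 1 cell. Ryk, which has an inactive kinase domain and steers axons away from Wnt5a in the mouse, was highest in MGE-derived 1 cells, at 92.9 CPM (11 of 18 cells, median 6.41, highest 459.7). In the other named labels Ryk ran from 4.03 CPM in VZ-derived to 21.5 CPM in Glutamatergic 1 cells, apart from 72.8 CPM in the 4 GABAergic cells. At 1 CPM or more, 28 cells held both Lrp6 and Ryk, 36 Lrp6 without Ryk and 23 Ryk without Lrp6. Lrp5 stayed under 1 CPM in all named labels but Glutamatergic 2 (11.1 CPM, 95.8% of it from 1 cell, and 0.496 CPM without that cell).

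**Figure D2:**
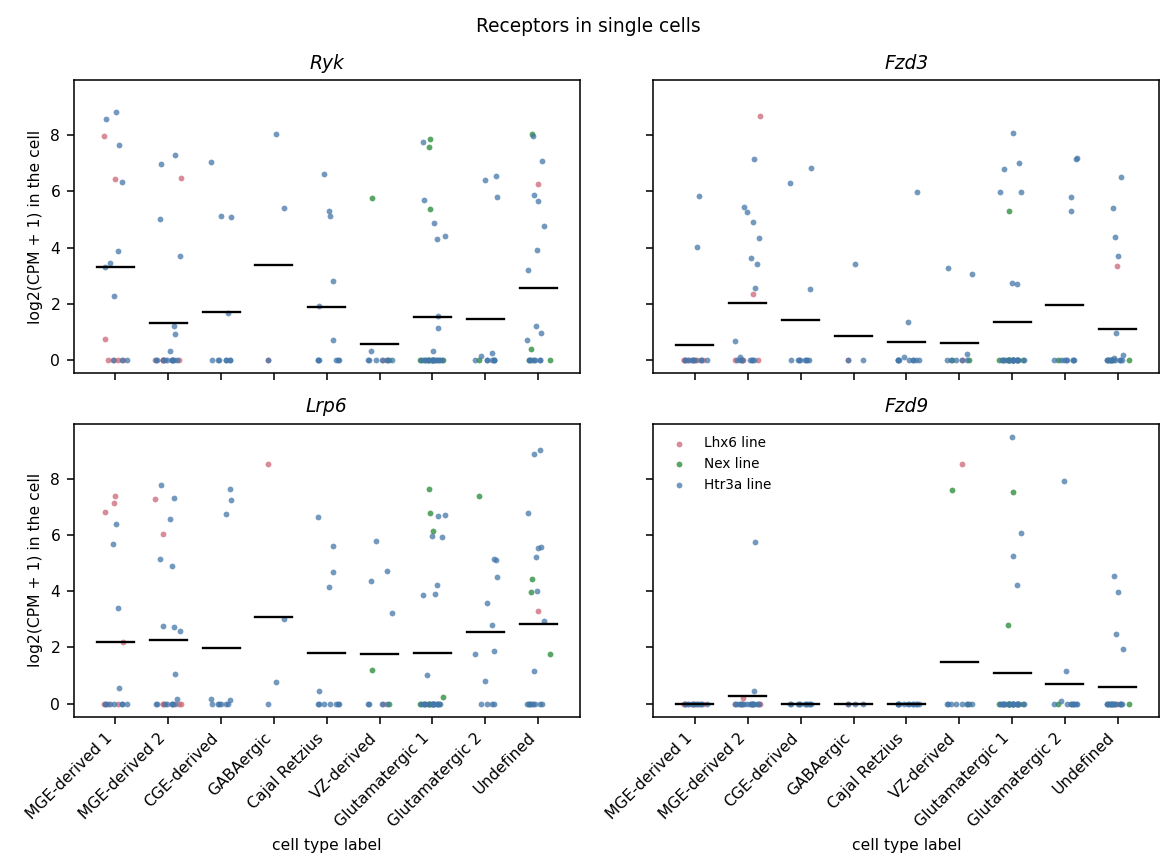
Each point is 1 passed cell, placed by its type label (x) and its log2(CPM + 1) (y), colored by Cre line, with means as black bars; the panels are Ryk, Fzd3, Lrp6 and Fzd9. Ryk and Lrp6 points off zero occur in every label, while Fzd9 points off zero lie in VZ-derived, glutamatergic, Undefined and 3 MGE-derived 2 cells.

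Dkk3 is a divergent Dickkopf protein whose effect on Wnt signals differs between tissues. It was found in 12 of 12 Cajal Retzius cells, with a lowest value of 0.0620, a median of 911 and a highest value of 1722 CPM, so that 11 of the cells were high and 1 was near 0. Their summed level was 939 CPM (95% Poisson interval 934 to 944). The next named labels were VZ-derived at 77.0 CPM (3 of 11 cells, 97.2% of it from 1 cell, and 2.31 CPM without it), CGE-derived at 29.8 CPM (3 of 11 cells) and MGE-derived 2 at 15.8 CPM (4 of 24 cells, 89.7% from 1 cell). Glutamatergic 1 cells held 3 counts of Dkk3 in all 33 cells, which is 0.0102 CPM, with a 95% Poisson interval from 0.00210 to 0.0298. Sfrp1 and Sfrp2 bind Wnts directly and are known from progenitors of the forebrain. Sfrp2 was highest in CGE-derived cells, at 91.2 CPM (4 of 11 cells, highest 471, 70.6% of counts from 1 cell, and 31.02 CPM without it); it had 0 counts in MGE-derived 1, GABAergic, Cajal Retzius and Glutamatergic 2 cells. Of its exon bases, 16.1% overlap a gene of the opposite strand. Sfrp1 was highest in VZ-derived cells, at 33.8 CPM (4 of 11 cells, highest 159), followed by CGE-derived cells at 24.3 CPM (3 of 11 cells).

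**Figure D3:**
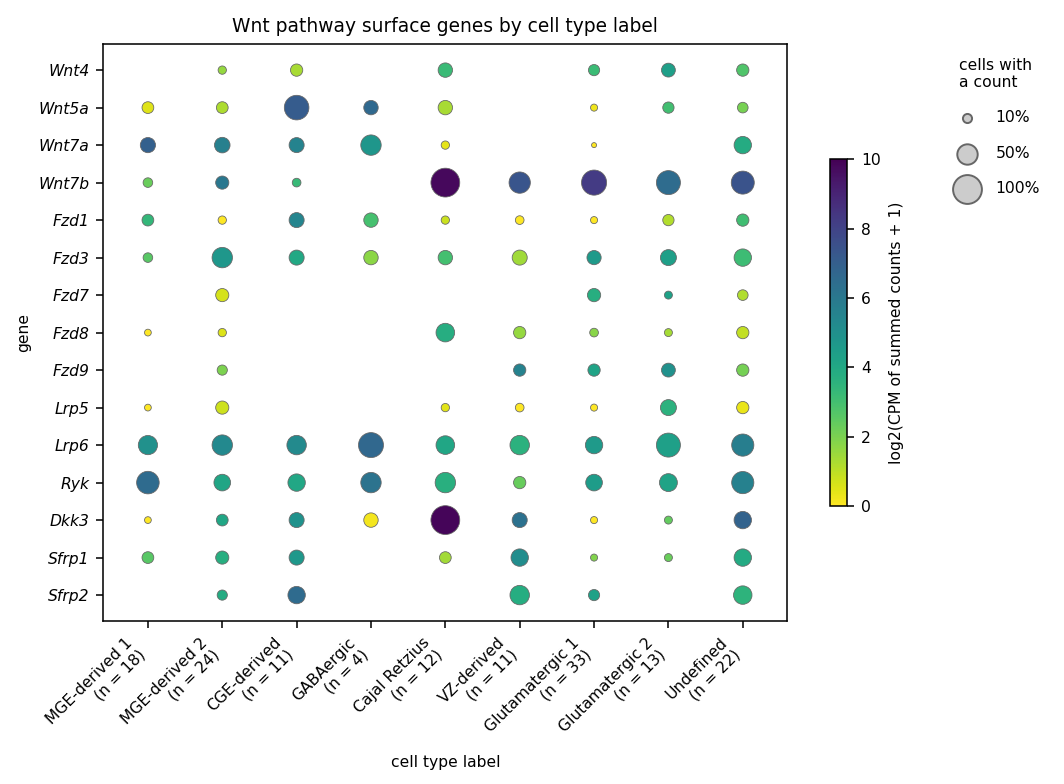
Dot area gives the share of cells of a label that held a count and color the log2 of the summed CPM plus 1, for the 15 described genes (rows) in 9 type labels (columns, with the number of cells). Wnt7b and Dkk3 in Cajal Retzius cells are the darkest dots, at 889.7 and 939 CPM, and empty places are genes with 0 counts in a label. Color is not corrected for exon length, so it compares labels within a row.

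For sums and shares over different genes, levels were taken per kilobase of exon. On that scale the 19 ligands summed to 184 CPM per kb in Cajal Retzius cells, of which Wnt7b made up 98.7%, against 70.5 in Glutamatergic 1 cells (Wnt7b 88.6%). In interneuron labels the ligand sum was 43.2 CPM per kb in MGE-derived 1 cells (Wnt7a 90.6%), 33.5 in MGE-derived 2 cells (Wnt7a 48.0%, Wnt7b 39.8%) and 34.2 in CGE-derived cells (Wnt5a 51.8%, Wnt7a 41.5%). The share of Wnt7a in CGE-derived cells rests on 1 of 11 cells with 83.5% of its counts, without which its level was 8.15 CPM in place of 45.02. The 10 inhibitors summed to 282 CPM per kb in Cajal Retzius cells (Dkk3 99.3%), 56.8 in CGE-derived cells (Sfrp2 74.6%) and 40.3 in VZ-derived cells (Dkk3 57.0%). They summed to at most 14.01 in each of the other named labels. The 10 frizzled receptors ran from 2.04 CPM per kb in GABAergic cells to 21.3 in VZ-derived cells, where Fzd9 made up 97.4%.

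**Figure D4:**
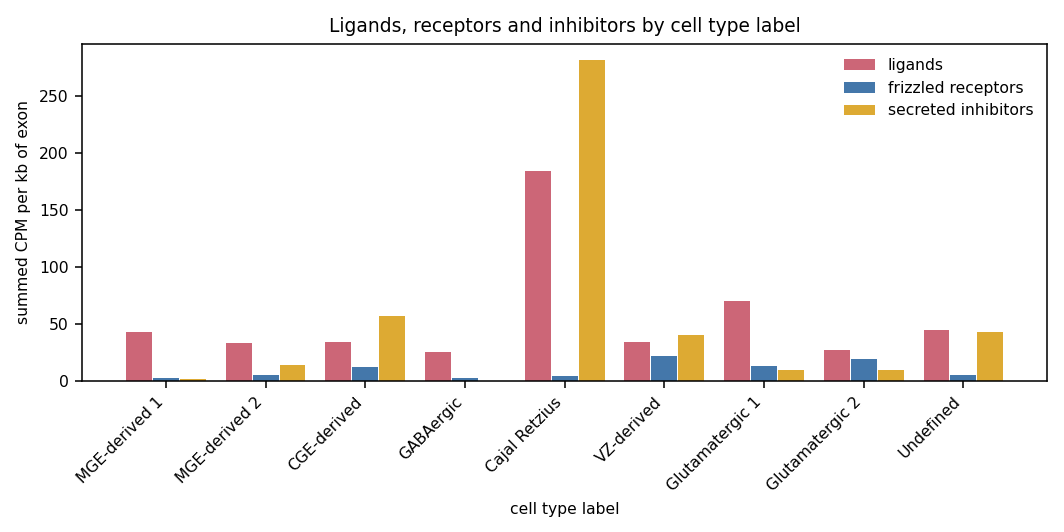
Bars give the summed CPM per kb of exon (y) of all ligands, frizzled receptors and secreted inhibitors in each type label (x), 1 pooled value per label, so no error bar is drawn. Cajal Retzius cells have the highest ligand bar (184) and inhibitor bar (282), and receptor bars are low in all labels.

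Differences were then taken between groups of labels or lines. A gene entered a comparison if 10% or more of the cells in 1 of its groups had a count. It was called higher or lower where the means of log2(CPM + 1) differed by at least 1 and the CPM of summed counts differed at least 2-fold the same way. No test was possible with 1 sample a group, so a call is a size, and the share of all compared genes called in the same direction is given as the background. The GABAergic, Cajal Retzius and VZ-derived comparisons share the 46 glutamatergic cells, and 4 comparisons use MGE-derived cells, so they are not independent of each other. The type labels may rest on some of the same RNA, which was not tested.

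The first question was how cortical interneurons and projection neurons differ in Wnt signals. In the 57 interneuron cells (both MGE-derived labels, CGE-derived and GABAergic, together called GABAergic cells here) Wnt7b was lower than in 46 cells of both Glutamatergic labels, and Wnt7a was higher. Wnt7b had a median of 0 (highest 1716) CPM in GABAergic cells, with counts in 8 of 57, against a median of 47.0 (highest 2412) CPM in glutamatergic cells, with counts in 34 of 46. Its mean of log2(CPM + 1) was 0.639 ± 2.01 in GABAergic cells and 4.78 ± 4.09 in glutamatergic cells (SD over cells), a difference of -4.14, and its summed level was 7.78-fold lower (29.5 CPM in GABAergic cells and 229 CPM in glutamatergic cells). The fold was made smaller by 1 MGE-derived 2 cell. Without the highest cell of each group the levels were 3.66 CPM in GABAergic cells and 198 CPM in glutamatergic cells. The groups overlapped, through the few GABAergic cells above 0 and the 12 glutamatergic cells without a count. Wnt7a was held by 17 of 57 GABAergic cells (67.1 CPM, highest 1757) and by 1 of 46 glutamatergic cells with 1 count, which is 0.00221 CPM (95% Poisson interval 5.59e-05 to 0.0123), a difference of 1.71. These were the 2 calls among the 17 members compared: 1 was higher, against 3.94% of all 13139 compared genes, and 1 lower, against 5.64%. The median difference was 0.07 over the members compared and -0.02 over all genes. Without the cell of highest level in each group the difference was -4.18 for Wnt7b and 1.55 for Wnt7a. Fzd9 (1.21 CPM in GABAergic cells and 22.0 CPM in glutamatergic cells, difference -0.86), Fzd7 (0.238 and 14.4 CPM, difference -0.70) and Wnt5a (40.6 and 2.61 CPM, difference 0.94) differed in summed level and missed the size needed over cells. Within the Htr3a line the 2 called differences were -4.13 for Wnt7b and 2.11 for Wnt7a. There 4 members were called, with no share over all genes taken for that run.

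Other genes of the pathway were read from lists of its further parts. Over all genes, 3.94% were higher and 5.64% lower in GABAergic than in glutamatergic cells. In the same comparison 0 of 2 compared secretion genes, 0 of 15 intracellular genes and 3 of 6 R-spondin and Lgr genes were called, the last 3 all lower. These were the R-spondin Rspo3 (1.91 CPM in GABAergic cells and 114 CPM in glutamatergic cells), Rspo2 (0.0219 and 14.2 CPM) and Znrf3 (1.18 and 15.1 CPM). R-spondins strengthen Wnt signals by removing the ubiquitin ligase Znrf3, which takes frizzled receptors off the membrane. Of 6 other surface modulators 2 were lower (Gpc4 and Tpbg); of 11 transcription genes 1 was higher (Bcl9, 90.5 and 31.6 CPM) and 1 lower (Tle4, a TCF co-repressor, 31.6 and 152 CPM). Of 9 target genes 1 was higher (Ccnd1) and 2 lower (Znrf3 and Tnfrsf19), and of 11 planar polarity genes 1 was higher (Dact1, 338 CPM in GABAergic cells and 54.1 CPM in glutamatergic cells) and 1 lower (Celsr3, 35.4 and 90.9 CPM).

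**Figure D5:**
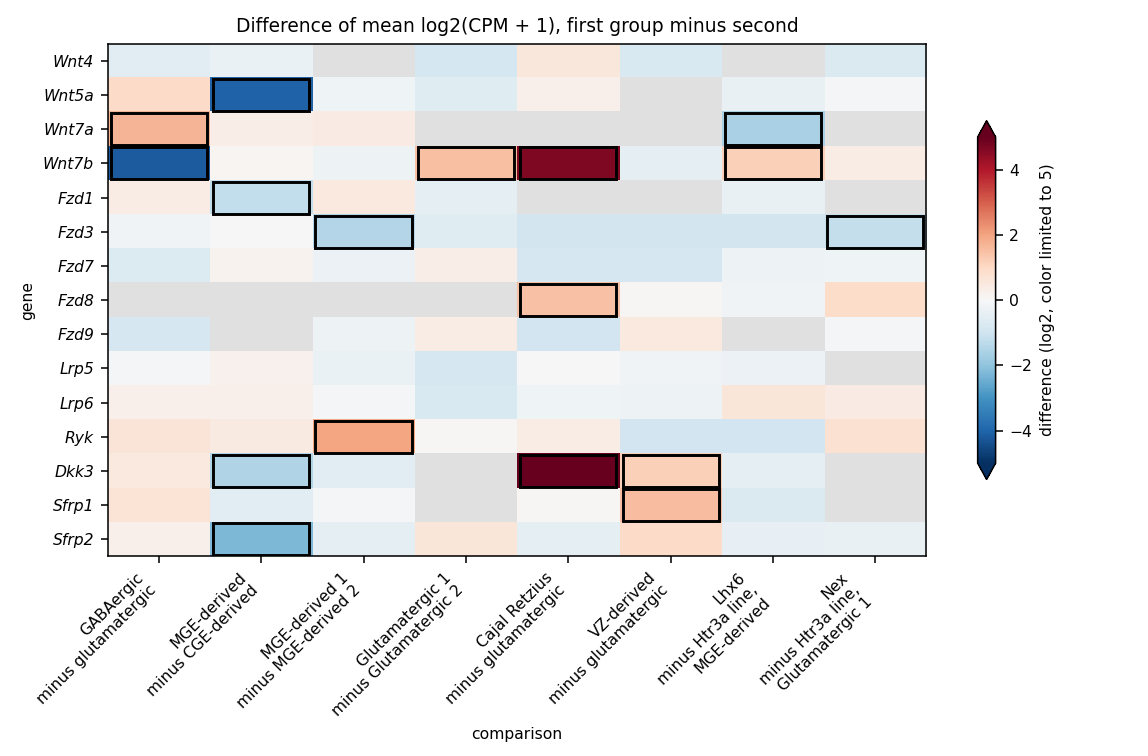
Color gives the difference in mean log2(CPM + 1) between groups, the group named first minus the second, for 15 genes (rows) in 8 comparisons (columns); black frames mark calls and grey marks genes that too few cells held. Wnt7b and Wnt5a have the strongest negative differences (-4.14 and -4.04), and Dkk3 in Cajal Retzius cells the strongest positive one (8.95, beyond the color limit).

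Between the sources of interneurons, 42 MGE-derived cells (both labels) were set against 11 CGE-derived cells. Wnt5a had a median of 0 (highest 22.1) CPM in MGE-derived cells, with counts in 7 of 42, against a median of 123 (highest 446) CPM in CGE-derived cells, with counts in 8 of 11. The difference was -4.04 (mean log2 0.289 ± 0.898 in MGE-derived cells and 4.33 ± 4.01 in CGE-derived cells), and the summed level was 143-fold lower; 6 CGE-derived cells lay above every MGE-derived cell. Sfrp2 was lower as well, at 8.15 CPM in MGE-derived cells (3 of 42) and 91.2 CPM in CGE-derived cells (4 of 11), a difference of -2.23. Without the highest cell of each group the summed levels were 0.322 CPM in MGE-derived and 116 CPM in CGE-derived cells for Wnt5a, and 0.306 and 31.02 CPM for Sfrp2. Dkk3 (9.43 and 29.8 CPM, difference -1.51) and Fzd1 (3.83 and 43.2 CPM, difference -1.24) were also called lower. Of 15 members compared 0 were higher and 4 lower, against 12.1% of all 12753 genes higher and 5.88% lower, so the members' share of lower calls was above the background and their share of higher calls below it. Fzd1 was not called without its cell of highest level in each group (difference -0.69), nor with failed cells added (-0.90) or among cells with 4000 to 9000 genes (-0.60). Cells with microglia RNA numbered 6 of 42 in MGE-derived and 2 of 11 in CGE-derived labels; without them Dkk3 and Fzd1 were not called, and Wnt5a (-3.51) and Sfrp2 (-2.16) were. Within the Htr3a line the differences were -3.92 for Wnt5a, -2.09 for Sfrp2, -1.34 for Dkk3 and -1.11 for Fzd1.

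Of the other pathway genes, Wls, which carries Wnts to the cell surface, was lower, at 33.3 CPM in MGE-derived cells and 77.1 CPM in CGE-derived cells; it was the 1 call among 2 secretion genes. None of 3 R-spondin and Lgr genes and 1 of 4 surface modulators (Kremen1, lower) was called. Of 15 intracellular genes 2 were higher (Dvl1 and Dvl2, which relay the signal from frizzled receptors) and 1 lower (Ctnnbip1, an inhibitor of beta-catenin, 83.1 CPM in MGE-derived cells and 189 CPM in CGE-derived cells). Tle4 was the higher gene of 11 transcription genes, with Pygo2 and Bcl9l lower, and Myc the higher and Tnfrsf19 the lower of 8 targets. Of 10 planar polarity genes 3 were higher: Dact1 (381 and 161 CPM), Daam1 (111 and 4.12 CPM) and Prickle1 (91.6 and 1.59 CPM). Over all genes of this comparison 12.1% were higher and 5.88% lower.

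Within the MGE-derived cells, Ryk was higher in MGE-derived 1 than in MGE-derived 2 cells and Fzd3 was lower. Ryk had a median of 6.41 (highest 459.7) CPM in 18 MGE-derived 1 cells, 11 of which held it, and a median of 0 (highest 156) CPM in 24 MGE-derived 2 cells, 8 of which held it. The mean of log2(CPM + 1) was 3.31 ± 3.46 in MGE-derived 1 cells and 1.33 ± 2.49 in MGE-derived 2 cells, a difference of 1.98, with a 5.595-fold higher summed level. Fzd3 was held by 2 of 18 MGE-derived 1 cells (5.10 CPM) and 12 of 24 MGE-derived 2 cells (25.2 CPM), a difference of -1.48 (1.06 and 17.1 CPM without the highest cell of each label). Both genes overlapped between the labels. Of 20 members compared, 1 was higher against 1.84% of 13837 genes, and 1 lower against 10.8%. The median difference was -0.18 over the members and -0.39 over all genes, and MGE-derived 1 cells held a median of 4563 genes against 5493.5 in MGE-derived 2 cells. Ryk thus differed against the direction of most genes. Within the Htr3a line the differences were 2.54 for Ryk and -1.31 for Fzd3.

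The secretion genes Porcn, which adds the lipid to Wnts, and Wls were both lower in MGE-derived 1 cells, the only calls among 3 compared: Porcn at 16.6 CPM in MGE-derived 1 cells (4 of 18) and 95.5 CPM in MGE-derived 2 cells (18 of 24), and Wls at 4.92 and 52.3 CPM. Of 6 R-spondin and Lgr genes 1 was lower (Lgr4), and of 9 surface modulators none was called. Of 15 intracellular genes 1 was higher (Csnk1g1) and 1 lower (Amer1), of 11 transcription genes 2 were lower (Bcl9 and Tle2) and of 11 targets 1 was lower (Nkd2). Of 11 planar polarity genes 4 were lower: Daam1 (51.4 and 150.4 CPM), Celsr3 (14.2 and 52.9 CPM), Vangl2 (1.70 and 38.1 CPM) and Prickle2 (25.03 and 97.4 CPM). Over all genes of this comparison 1.84% were higher and 10.8% lower.

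Between the glutamatergic labels, Wnt7b was the only call among 14 members. It had a median of 159 (highest 2412) CPM in 33 Glutamatergic 1 cells and a median of 17.6 (highest 551) CPM in 13 Glutamatergic 2 cells, a difference of 1.496 and a 3.45-fold higher summed level. Cells of both labels ranged down to 0, in 8 of 33 Glutamatergic 1 cells and 4 of 13 Glutamatergic 2 cells. The 1 higher call stands against 1.09% of 12564 genes, and the 0 lower calls against 14.2%. Glutamatergic 1 cells held a median of 4954 genes and Glutamatergic 2 cells 7585, and the median difference of all genes was -0.97 (members -0.46), so Wnt7b lay against the general direction. With depth thinned to 1500000 counts, Wnt7b was seen in 23 of 33 Glutamatergic 1 cells and 7 of 13 Glutamatergic 2 cells. Of the other lists none had a higher call. Those called lower were 0 of 2 secretion genes, 3 of 4 R-spondin and Lgr genes (Lgr4, Rspo2 and Znrf3), 1 of 6 surface modulators (Kremen1), 2 of 15 intracellular genes (Csnk1d and Dvl3), 4 of 10 transcription genes (Tle1, Pygo1, Tle2 and Tle3), 2 of 8 targets (Tnfrsf19 and Znrf3) and 1 of 11 planar polarity genes (Dact1).

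Cajal-Retzius cells are early-born neurons of the outermost cortical layer, known for reelin. The 12 cells of this label differed from the 46 glutamatergic cells in Dkk3, Wnt7b and Fzd8, all higher. Dkk3 had a median of 911 (lowest 0.0620, highest 1722) CPM in Cajal Retzius cells and a median of 0 (highest 34.4) CPM in glutamatergic cells, of which 3 of 46 held a count. The difference was 8.95 (mean log2 9.07 ± 2.86 in Cajal Retzius cells and 0.122 ± 0.759 in glutamatergic cells) and the summed level 620.1-fold higher; 11 of the 12 cells lay above every glutamatergic cell. Nearly all glutamatergic Dkk3 counts came from 1 cell, without which the level was 0.00692 CPM in place of 1.51. Wnt7b averaged 9.44 ± 1.36 on the log2 scale in Cajal Retzius cells and 4.78 ± 4.09 in glutamatergic cells, a difference of 4.66, with 889.7 CPM in Cajal Retzius cells against 229 CPM in glutamatergic cells. Its groups overlapped, since glutamatergic cells reached 2412 CPM. None of the Cajal Retzius cells was at 0. Their median of 976 CPM lay above those of Glutamatergic 1 (159 CPM) and Glutamatergic 2 cells (17.6 CPM). Fzd8 was seen in 5 of 12 Cajal Retzius cells (12.7 CPM) and 4 of 46 glutamatergic cells (2.12 CPM, and 0.773 CPM without the highest cell), a difference of 1.48. Of 17 members compared 3 were higher, against 11.8% of all 12722 genes, and 0 lower, against 7.64%. The median difference was 0.26 over the members and 0.51 over all genes. Cajal Retzius cells held a median of 6714 genes and glutamatergic cells 5620.5, and the part of this gap in the calls was not tested. Fzd7 and Fzd9 had no count in the Cajal Retzius cells and 14.4 and 22.0 CPM in glutamatergic cells, with differences of -0.83 and -0.97 that missed the size for a call. All Cajal Retzius cells were of the Htr3a line; against Htr3a glutamatergic cells alone the differences were 8.91 for Dkk3, 4.94 for Wnt7b and 1.66 for Fzd8. The level of markers of meninges and choroid plexus, another source of Wnt proteins at the brain surface, summed to 525 CPM over Cajal Retzius cells, with 2 of 6 markers detected, a range from 0 to 5056 CPM and a median of 0, against 1.16 CPM in Glutamatergic 1 and 0.452 in Glutamatergic 2 cells, and Col1a2, Dcn, Lum and Folr1 were at 0 in Cajal Retzius cells. The part of these markers in the Dkk3 and Wnt7b levels was not tested.

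The genes that Wnts need to leave a cell were divided in Cajal Retzius cells. Porcn was found in 9 of 12 cells at 94.9 CPM, near the 83.5 CPM of Glutamatergic 1 and 117 CPM of Glutamatergic 2 cells. Wls had 0 counts in the 12 cells, which allows a share of up to 26.5% of cells. Counting error alone allows a level of up to 0.0192 CPM in these 12 cells, a limit that leaves out the spread between cells. In glutamatergic cells Wls stood at 25.1 CPM (11 of 46), and the difference was -1.41. At 1 CPM or more, 12 of 12 Cajal Retzius cells held Wnt7b without Wls; among Glutamatergic 1 cells 16 of 33 held Wnt7b without Wls and 7 held both. Wls was the 1 lower call of 3 secretion genes. Over all genes of this comparison 11.8% were higher and 7.64% lower. Of 5 R-spondin and Lgr genes 2 were lower, Rspo3 (0.0513 CPM in Cajal Retzius cells and 114 CPM in glutamatergic cells) and Rspo2 (0 counts and 14.2 CPM), and none of 6 surface modulators was called. Dvl3 (105 and 23.8 CPM) and Axin1 (49.9 and 19.7 CPM), the scaffold of beta-catenin breakdown, were the 2 higher genes of 15 intracellular ones. Of 9 transcription genes Tle2 was higher and Tle1 lower. Of 7 targets 2 were higher, Tnfrsf19 (431 and 53.2 CPM, in 12 of 12 Cajal Retzius cells) and Nkd2 (139.7 and 26.98 CPM), and Myc was lower, while Axin2, the target read most often as a sign of beta-catenin signalling, stood at 5.64 CPM in 4 of 12 cells and was not called. Of 12 planar polarity genes 3 were higher and 2 lower; Dact1 (364 and 54.1 CPM), Celsr2 (236 and 104 CPM) and Daam1 (171 and 68.5 CPM) were higher and Prickle1 (0.552 and 99.6 CPM) was lower.

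In 11 VZ-derived cells, Sfrp1 and Dkk3 were higher than in glutamatergic cells. Sfrp1 was held by 4 of 11 VZ-derived cells (33.8 CPM, median 0, highest 159) and 3 of 46 glutamatergic cells (3.12 CPM, highest 78.0), a difference of 1.56. Dkk3 was held by 3 of 11 VZ-derived cells (77.0 CPM) and 3 of 46 glutamatergic cells (1.51 CPM), a difference of 1.196, which was 0.43 without the cell of highest level in each group and so was not called. Of 12 members compared 2 were higher, against 6.17% of 12256 genes, and 0 lower, against 10.2%. Cells with microglia RNA were 2 of 11 in the VZ-derived and 5 of 46 in the Glutamatergic labels, and without them neither gene was called (0.54 for Sfrp1, 0.99 for Dkk3). Wnt7b did not differ by the size of a call (mean log2 4.27 ± 4.18 in VZ-derived cells and 4.78 ± 4.09 in glutamatergic cells). Wls was at 0.0178 CPM in VZ-derived cells (1 of 11) against 25.1 CPM in glutamatergic cells, the 1 lower call of 2 secretion genes. Of 5 R-spondin and Lgr genes 1 was lower (Rspo2), of 7 surface modulators 1 was higher (Gpc4), of 15 intracellular genes 1 was higher (Axin1), of 10 transcription genes 2 were lower (Tle4 and Tle1), of 8 targets 1 was higher (Ccnd1) and of 11 planar polarity genes 1 was higher (Dact1) and 2 lower (Celsr3 and Celsr2).

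Lines were compared among cells of like labels, where line, animals and day of preparation cannot be told apart. Among the cells of both MGE-derived labels Wnt7a was lower in 14 cells of the Lhx6 line than in 28 of the Htr3a line: 3 of 14 Lhx6 cells held it (22.2 CPM, highest 287) and 9 of 28 Htr3a cells (99.7 CPM, highest 1757), a difference of -1.61. In MGE-derived 1 cells Wnt7a stood at 0.109 CPM in the Lhx6 line and 180 CPM in the Htr3a line, a difference of -3.04. In MGE-derived 2 cells the lines had 44.2 and 52.8 CPM and a difference of -0.48. The 44.2 CPM came nearly all from 1 Lhx6 cell at 287 CPM. Without the highest cell of each line the differences were -2.36 in MGE-derived 1 and -1.25 in MGE-derived 2 cells, both lower by the size for a call. Wnt7b was called higher in the Lhx6 line (3 of 14 cells, 159 CPM) than in the Htr3a line (4 of 28 cells, 1.38 CPM), a difference of 1.19, through 1 cell at 1716 CPM; without the cell of highest level in each group the difference was 0.64 and there was no call. By label, Wnt7b stood at 12.4 CPM in MGE-derived 1 cells of the Lhx6 line (2 of 7 cells), against 0 counts in those of the Htr3a line (0 of 11), a difference of 1.46 that passed the size for a call and was 0.57 without the highest cell. In MGE-derived 2 cells Wnt7b was held by 1 of 7 Lhx6 cells and 4 of 17 Htr3a cells, a difference of 1.02 with the 1716 CPM cell and -0.25 without the highest cell of each line. Of 21 members compared 1 was higher, against 5.8% of 14147 genes, and 1 lower, against 13.1%. Within MGE-derived 1 cells (7 Lhx6, 11 Htr3a) 2 of 10 members compared were higher, against 19.3% of 11899 genes, and 2 lower, against 13.4%. Beside Wnt7b and Wnt7a these were Lrp6, higher (70.2 CPM in the Lhx6 line and 13.1 CPM in the Htr3a line, difference 1.91), and Ryk, lower (43.2 and 115 CPM, difference -1.87). Within MGE-derived 2 cells (7 Lhx6, 17 Htr3a) 2 of 31 members were higher, against 6.08% of 15422 genes, and 1 lower, against 21.8%. Beside Wnt7b these were Fzd4, higher through 1 Lhx6 cell, and Sfrp1, lower (0 counts in the Lhx6 line and 15.3 CPM in the Htr3a line, difference -1.30), and none of the 3 was called without the highest cell of each line. Of the other lists, 1 of 3 secretion genes was lower (Wls, 6.50 CPM in the Lhx6 line and 42.1 CPM in the Htr3a line), and none of 7 R-spondin and Lgr genes or 7 surface modulators was called. Of 15 intracellular genes 3 were lower (Ctnnbip1, Apc2 and Dvl3), of 12 transcription genes 2 were higher (Tle4 and Tle2) and of 12 targets 1 was lower (Ccnd1, 0.0541 and 51.2 CPM). Of 12 planar polarity genes 1 was higher (Dact1) and 3 lower (Celsr3, Prickle1 and Prickle2). Lhx6 cells held a median of 4581.5 genes and Htr3a cells 5493.5, and the part of this gap in these results was not tested.

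Among Glutamatergic 1 cells Fzd3 was lower in 10 cells of the Nex line, of which 1 held it (3.93 CPM), than in 23 cells of the Htr3a line, of which 7 held it (29.8 CPM, highest 267), a difference of -1.18. It was not called among cells with 4000 to 9000 genes (difference -0.82). No member was called higher. Of 17 members compared 0 were higher, against 9.98% of 12508 genes, and 1 lower, against 13.9%, so neither share stood out from the background. Wnt7b was found in 7 of 10 Nex cells (median 141, highest 2412 CPM) and 18 of 23 Htr3a cells (median 176, highest 1108 CPM), a difference of 0.37. Of the other lists, Wls was higher (41.3 CPM in the Nex line and 14.98 CPM in the Htr3a line) and Porcn lower (41.2 and 98.6 CPM) of 2 secretion genes, and 2 of 7 R-spondin and Lgr genes were lower (Rspo3 and Rspo2). Of 7 surface modulators 1 was higher (Gpc3), of 15 intracellular genes 1 was higher (Apc2) and 2 lower (Ctnnb1, which encodes beta-catenin, 157 and 444 CPM, and Csnk1d). Of 9 transcription genes 1 was higher (Pygo2) and 2 lower (Tle1 and Tle2), of 8 targets 2 were higher (Nkd2 and Myc) and 1 lower (Tnfrsf19), and of 11 planar polarity genes 2 were higher (Celsr2 and Prickle2) and 1 lower (Scrib).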

How the data were processed

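Cytosol of single cells was sequenced as total RNA. The submitters' processing notes name Trimmomatic, STAR, featureCounts and the build GRCm38; versions, settings and the use of strand are not given in the sources used here. The authors deposited raw read counts per gene and a table of normalized values; in the deposited normalized table, a signal that can be compared between genes of 1 cell only with length in mind, 99.8% of nonzero values were the counts divided by 1 factor per cell (within 0.1%). Counts of 22880 identifiers were summed by symbol, and those of the 44 genes were used.

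CPM is a gene's count over the cell's total, scaled to a common total. A group's level is the CPM of its cells' summed counts, with a 95% Poisson interval (exact); shares have Clopper-Pearson intervals, and means are of log2(CPM + 1) with the SD over cells; intervals and limits cover counting error only, and a count of 0 was limited at 3 counts. With 1 sample a group no test was run, and thresholds of size were used (differences of 1 on the log2 scale and 2-fold in summed CPM). The comparison code was tested on simulated counts. Depth was equalised by thinning to 1500000 counts. Exon lengths come from GENCODE M21 and promoters from RefSeq (GRCm38.p6).

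Genes were described where 10% of passed cells held a count and a named label reached 5 CPM; genes of the pathway lists (secretion, R-spondins and Lgr, surface modulators, intracellular, transcription, targets, planar polarity) were named where called, at most 4 a list. The genes and lists were chosen with earlier results of these data known. The 14 cells that failed quality control were left out, and added back as 1 alternative. The others were the authors' normalized values, another pseudocount, a stricter filter, TMM scaling, left-out cells, a range of genes per cell and the Htr3a line alone. Python 3.11.15, numpy 2.4.6, pandas 2.3.3, scipy 1.17.1, R 4.3.3 and edgeR 4.0.16 (TMM factors only) were used.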

Additional observations from a re-analysis of the deposited data

Results flagged for a closer look

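Single cells stood apart from the others of their group in 10 cases, in the 2 groups that were checked. Other groups of like size, such as the 7 Lhx6 cells of each MGE-derived label, were not checked. In the GABAergic label (4 cells) the highest cell lay far from the rest for Wnt5a (398 CPM), Fzd1 (28.1 CPM) and Fzd3 (9.65 CPM), all in the same cell, and for Dkk3 (0.586 CPM, 7 counts) in another. Among the 10 Glutamatergic 1 cells of the Nex line the highest cell stood apart for Fzd7 (178 CPM) and Fzd9 (182 CPM), which were the same cell, for Fzd3 (38.1 CPM) and Fzd8 (77.4 CPM), which were another, for Sfrp2 (9.28 CPM) and for Wnt5a (0.377 CPM, 4 counts). Chance marks about 1 in 20 groups, and most cells of these groups were at 0 for these genes, so that a gene held by 1 cell is marked by its construction.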

How the results depend on the processing

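No call changed direction under any alternative run. The authors' normalized values are on a scale other than CPM, but were held to the same thresholds. For the alternative runs no share over all genes was taken, so their counts of calls have no background. The number of members called changed by more than 1.5 times in these cases. With the authors' normalized values it was 4 for GABAergic against glutamatergic cells (2 as reported), 4 for Glutamatergic 1 against 2 (1), 9 for Cajal Retzius (3), 6 for VZ-derived (2), 4 for the Lhx6 line (2) and 3 for the Nex line (1). With log2(CPM + 10) it was 1 for GABAergic, 2 for MGE-derived against CGE-derived (4), 1 for MGE-derived 1 against 2 (2), 0 for VZ-derived, 0 for the Lhx6 line and 0 for the Nex line, and the Dkk3 difference in Cajal Retzius cells was 5.98. Without cells that held microglia RNA it was 2 for MGE-derived against CGE-derived, 2 for Glutamatergic 1 against 2, 6 for Cajal Retzius and 0 for VZ-derived. With cells of 4000 to 9000 genes it was 6 for Cajal Retzius, 5 for VZ-derived and 5 for the Nex line. In the Htr3a line alone it was 4 for GABAergic and 4 for VZ-derived, and with a filter at 25% of cells it was 1 for the Lhx6 line. Calls as reported ended under several settings. With 4000 to 9000 genes these were Fzd3 in the Nex line (-0.82) and Fzd1 between MGE-derived and CGE-derived cells. With the failed cells added they were Fzd1 (-0.90) and Wnt7b in the Lhx6 line (0.999845, just under 1). With log2(CPM + 10) the calls of Wnt7a in GABAergic cells (0.97), Fzd3 between MGE-derived labels (-0.64) and Fzd8 in Cajal Retzius cells (0.66) ended. So did all calls of VZ-derived cells, the Lhx6 line and the Nex line. Dkk3 and Fzd1 between MGE-derived and CGE-derived cells also ended at that setting, and again without cells with microglia RNA. Without those cells the VZ-derived calls ended too. Without the highest cell of each group, Fzd1, Wnt7b in the Lhx6 line and Dkk3 in VZ-derived cells were not called. The cause of these changes was not tested. No paired analysis was possible because no test was run and the cell numbers do not pair cells between groups. Few cells per label and 1 sample a group limit every value here, and genes held by 1 or 2 cells rest on those cells.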

Other observations

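The 22 Undefined cells, which belong to no comparison, held genes of both divisions. Wnt7b was found in 14 of them (173 CPM, median 59.6, highest 779), Dkk3 in 8 (115 CPM), Wnt7a in 8 (13.7 CPM), Lrp6 in 13 (52.5 CPM) and Ryk in 13 (48.5 CPM). At 1 CPM or more, 6 of the 9 cells that held both Wnt7a and Wnt7b carried this label. Microglia RNA was seen in 7 of the 22 cells, and its part in these levels was not tested.

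Over all 148 cells, 34 held Wnt7b and at least 1 frizzled gene at 1 CPM or more. Wnt7b without a frizzled gene was held by 34 cells, a frizzled gene without Wnt7b by 32, and neither by 48. Wnt7b and Wls were held together by 16 cells, Wnt7b without Wls by 52, Wls without Wnt7b by 22 and neither by 58.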
